A study of Drosophila melanogaster with 24 samples.

Results

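The genes for the proteins of the cytosolic ribosome were followed through their open chromatin. The set comprised every protein-coding gene outside chromosome 4 with a symbol that starts RpL or RpS, and sta, a small-subunit protein gene named for its phenotype. These were 92 genes, 54 counted by symbol with the large subunit and 38 with the small subunit. Genes with symbols ending in -like are included by name alone, and their role in the ribosome was not checked. An accessibility peak was counted with a gene where it overlapped the annotated gene body or the 1 kb on either side of it. By this rule 70 of the 92 genes had a peak, 39 of the large and 31 of the small subunit, and they held 100 of the 11145 peaks measured.

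A ribosome is a small subunit, which reads the messenger RNA, and a large subunit, which joins amino acids, and each is built from ribosomal RNA and proteins made in nearly equal amounts. The protein genes are short and among the most heavily transcribed in nearly every cell, and losing a copy of many of them gives the slow-growing, thin-bristled Minute flies. Histone H3.3 is the form of histone H3 that is put into chromatin outside DNA replication, above all at transcribed genes, so these genes are a natural place to look when it is missing.

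ATAC-seq, which marks open DNA by the insertion of sequencing adapters with the transposase Tn5, was run on brains of adult female Drosophila melanogaster. The study asked how supply of histone H3 compares with the identity of its H3.2 and H3.3 forms. There were 4 genotypes at 2 ages, 10 days and 1 day from eclosion, when the adult leaves the pupal case, with 3 libraries in each of the 8 groups. H3.3null flies lack H3.3, H3.3H3.2 flies are named for H3.2 in the place of H3.3, H3.3S31A flies for alanine in place of serine 31 of H3.3, and the control was OreR, short for Oregon-R, a standard wild-type laboratory stock. The alleles behind these names, the way in which each replacement was made and the number of lines are not given in the sources used here. OreR is a strain of its own. In comparisons with it, a difference in stock background and a difference in histone genotype cannot be told apart. Comparisons among the 3 mutant genotypes use OreR only in the shared estimate of spread. Whether the mutants share a background is not given either, so this limit may also hold among them. The extraction text speaks of 8 brains per sample and does not say that replicates were separate cohorts, so p-values measure the spread between these libraries, which may be partly technical.

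Library totals over all peaks ran from 3021672 to 4890579 counts, and a ribosomal protein peak had 20 to 1035 counts in a library (median 201). The peak wholly inside His3.3B, an H3.3 gene, had 9.34 to 18.5 CPM (counts scaled to a common library total) in the 6 H3.3null libraries and 36.6 to 54.6 CPM in the other 18, which sets the 6 H3.3null libraries apart as labelled, while the other genotype labels and the ages were not checked by it; the peak over an end of the same gene had 209 to 246 CPM in H3.3null and 193 to 228 CPM elsewhere. All 7 neuron marker genes and 4 of 5 glia marker genes (not alrm) had a peak in their body, against 0 of 4 photoreceptor and 0 of 4 muscle genes, 1 of 5 fat body genes (Yp1) and 1 of 4 germline genes (vas). The glia markers' summed level was 732 to 763 CPM in day 10 H3.3null libraries and 695 to 718 CPM in day 1 ones, against 659 to 680.4 CPM and 648 to 662 CPM in OreR at the same ages, so the libraries of these groups did not overlap. In H3.3H3.2 it was 673 to 720.3 CPM at day 10 and 673 to 724 CPM at day 1, where it also lay above OreR and overlapped H3.3null. In H3.3S31A it was 612 to 657 CPM at day 10 and 609 to 678 CPM at day 1. The neuron markers' summed level was 2783 to 3069 CPM in H3.3null at day 10, against 2823 to 3039 CPM in OreR at day 10. Whether the makeup of the brains has a part in the differences below was not tested. In whole brains, a site open in more cells and a site more open in each cell cannot be told apart.

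Ribosomal protein peaks were narrow, with a median width of 305 bp against 455 bp over all 11145 peaks. Per kb of peak, their mean level over the 24 libraries had a median of 155 CPM per kb, against 136 CPM per kb over all peaks. The peaks fell into 4 positions relative to their gene. Of the 100, 50 crossed an end of the gene body, 41 lay wholly outside it within 1 kb, 8 lay wholly inside it, and 1 (at RpS28a) covered it whole. The gene table used has no strand, so an end may be the start or the stop of the gene. Of the 41 outside peaks, 34 overlapped the body of another protein-coding gene, so that the peak may belong to the neighbour. Of all 100 peaks 48 did so, among them peaks over an end, to which the same limit applies. In median level, peaks over an end stood at 166 CPM per kb, outside peaks at 149 CPM per kb and inside peaks at 107 CPM per kb.

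The highest levels were at RpLP2 (256 CPM per kb), which makes an acidic protein of the ribosomal stalk, at RpS30 (241 CPM per kb), made as a fusion with a ubiquitin-like protein, and at the end of RpL3 (240 CPM per kb; 239.6 before rounding), a protein that reaches to the peptidyl transferase centre. The inside peak of RpS16 (238 CPM per kb) and the end peak of RpL23A (227 CPM per kb) followed. The lowest were the inside peaks of RpL36A (78.7 CPM per kb), RpS23 (93.3 CPM per kb) and RpL8 (96.7 CPM per kb), an outside peak of RpL30 (93.2 CPM per kb) and the end peak of RpS23 (100.2 CPM per kb). Thus 3 of the 5 lowest peaks, and 1 of the 5 highest, lay inside a gene body. At the 1 kb limit of the rule, a peak 919 bp from RpLP0-like and a peak 975 bp from RpL39 were just inside it, with log2 fold changes (H3.3null over OreR, day 10 then day 1) of 0.09 and 0.09, and 0.06 and 0.09. A peak 1026 bp from RpS21 (-0.37 and -0.39) and a peak 1061 bp from RpL23A (0.49 and 0.60) were just outside it and are not counted.

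In flies without H3.3 most ribosomal protein peaks did not pass the test against OreR, and a small group of peaks within gene bodies was higher. At day 10, 13 of the 100 peaks were higher and 7 lower in H3.3null than in OreR (edgeR quasi-likelihood test, adjusted p under 0.05), where 24.5% of all peaks were called, 15.5% higher and 9% lower. At day 1, 9 were higher and 6 lower, where 24.7% of all peaks were called, 14.1% higher and 10.6% lower. The ribosomal protein peaks were therefore called no more often than peaks in general. Their median log2 fold change was -0.04 at day 10 and 0.02 at day 1, against -0.01 and 0.00 over all peaks. In H3.3null, 8 peaks were higher than in OreR at both ages and 1 was lower at both, without a matching share over all peaks given here. Without OreR day 10 replicate 3 there were 13 calls at day 10, and without H3.3null day 1 replicate 1 there were 8 at day 1.

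**Figure D1:**
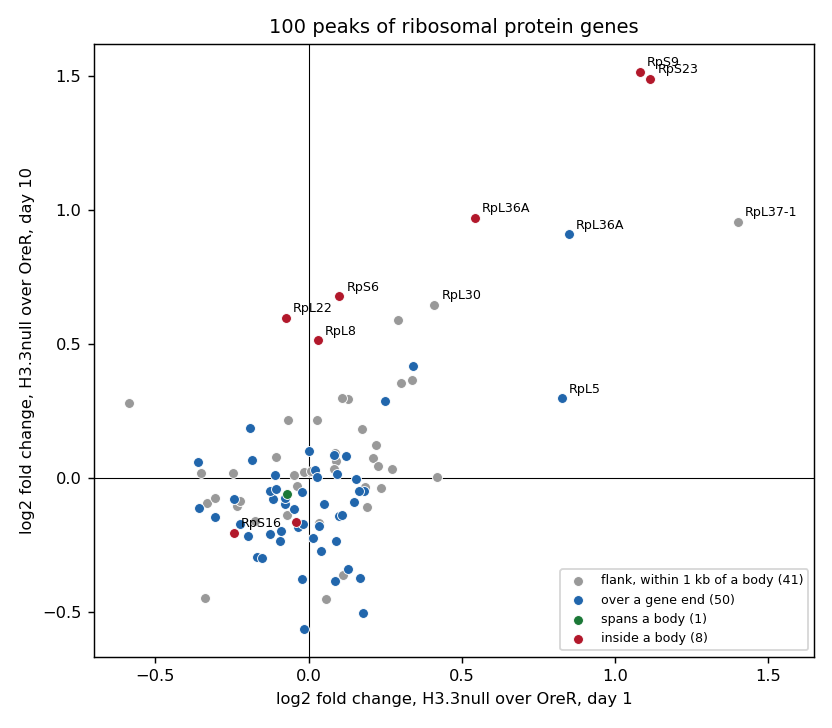
Each point is 1 of the 100 ribosomal protein peaks; x is the log2 fold change of H3.3null over OreR at day 1 and y the same at day 10, coloured by the peak's position relative to its gene. Most points lie near 0 on both axes, while the inside peaks of RpS9 and RpS23 lie above 1 on both.

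The calls were spread unevenly over these positions. Of the 8 peaks wholly inside a ribosomal protein gene, 6 were higher in H3.3null at day 10, with a median log2 fold change of 0.64 over all 8. Of the 50 peaks over an end, 2 were higher and 4 lower, with a median of -0.10. Of the 41 outside peaks, 5 were higher and 3 lower, with a median of 0.02. At day 1 the inside peaks had 3 higher calls and a median of 0.07, the end peaks 2 higher and 3 lower, and the outside peaks 4 higher and 3 lower. As background, 18.2% of the 5446 peaks inside any protein-coding gene were higher in H3.3null at day 10 and 16% at day 1. Among the 291 peaks inside genes no longer than RpL22 (2571 bp), the longest of the 8 ribosomal protein genes, 32% were higher at day 10 and 18.2% at day 1. Peaks inside other short genes were thus also raised, and whether the ribosomal protein genes differ from those was not tested.

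**Figure D2:**
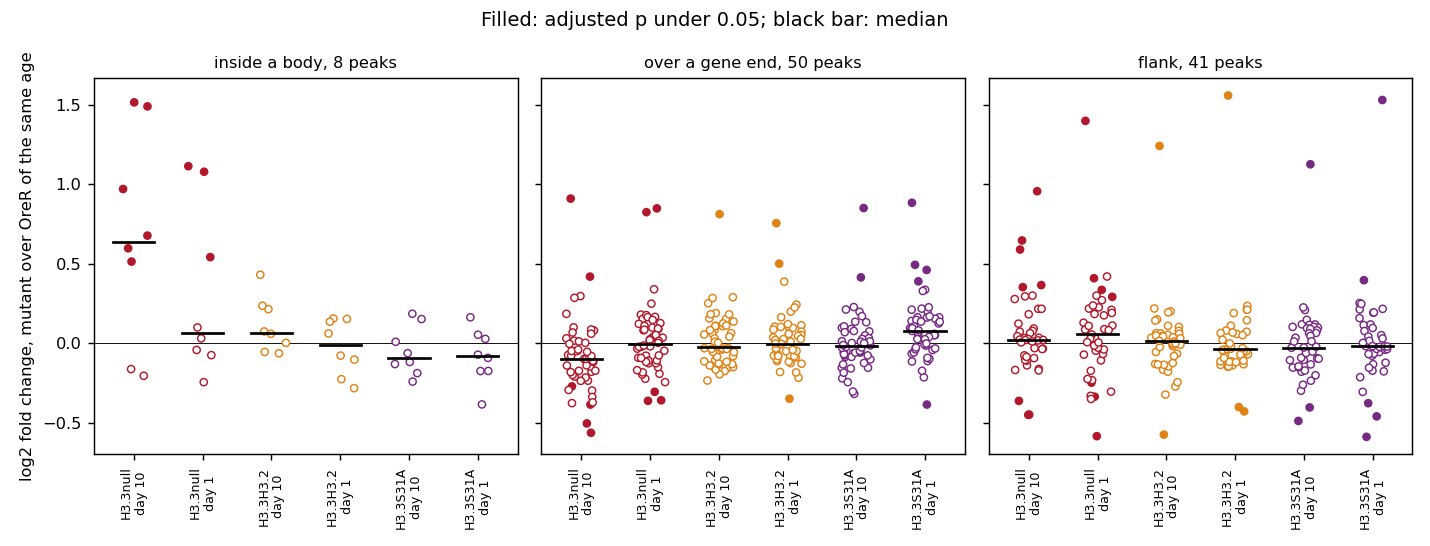
Log2 fold changes of ribosomal protein peaks over OreR, in panels for peaks inside a gene body (8), over a gene end (50) and in the flank (41), for each mutant and age; filled points passed the test and black bars are medians. The inside peaks of H3.3null at day 10 have a median of 0.64, while the medians of end and outside peaks lie at -0.10 and 0.02.

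RpS9, a small-subunit protein near the channel by which messenger RNA enters, had the largest difference between H3.3null and OreR at day 10. Its inside peak (chr3L:9509868-9510743, build dm6; gene body 9509793 to 9511531) is 876 bp wide and also overlaps the antisense RNA gene asRNA:CR45874 and a snoRNA gene. It had 188, 228 and 200.1 CPM in H3.3null at day 10, 87.0, 84.9 and 77.8 CPM in H3.3H3.2, 57.5, 67.8 and 63.8 CPM in H3.3S31A and 71.1, 71.7 and 72.5 CPM in OreR. At day 1 it had 141, 121 and 128 CPM in H3.3null, 67.3, 70.8 and 66.6 CPM in H3.3H3.2, 64.5, 55.9 and 54.4 CPM in H3.3S31A and 59.6, 57.4 and 67.0 CPM in OreR. Every H3.3null library stood above every library of the other 3 genotypes. The log2 fold change of H3.3null over OreR was 1.52 ± 0.096 at day 10 (adjusted p = 6.45e-15), and 1.08 ± 0.099 (adjusted p = 8.53e-11) at day 1. The median over the other peaks within 100 kb was 0.01 at day 10 and 0.18 at day 1, so the change was not shared by the neighbourhood.

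RpS23, a small-subunit protein at the decoding centre where it helps keep translation accurate, showed the same order of groups. Its inside peak (chr2R:14215423-14216308, 886 bp; gene body 14215096 to 14216627) also covers the microRNA gene mir-308. It had 164, 198 and 189 CPM in H3.3null at day 10, 84.5, 73.4 and 73.1 CPM in H3.3H3.2, 52.7, 59.9 and 53.1 CPM in H3.3S31A and 67.6, 66.3 and 62.5 CPM in OreR. At day 1 it had 143, 96.1 and 109.6 CPM in H3.3null, 59.5, 59.2 and 60.4 CPM in H3.3H3.2, 48.9, 50.2 and 51.9 CPM in H3.3S31A and 41.1, 57.8 and 61.0 CPM in OreR. All 6 H3.3null libraries were above all 18 others. The log2 fold change of H3.3null over OreR was 1.49 ± 0.12 at day 10 (adjusted p = 3.67e-12), and 1.11 ± 0.12 (adjusted p = 7.29e-09) at day 1, while nearby peaks had medians of -0.12 and -0.08.

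**Figure D3:**
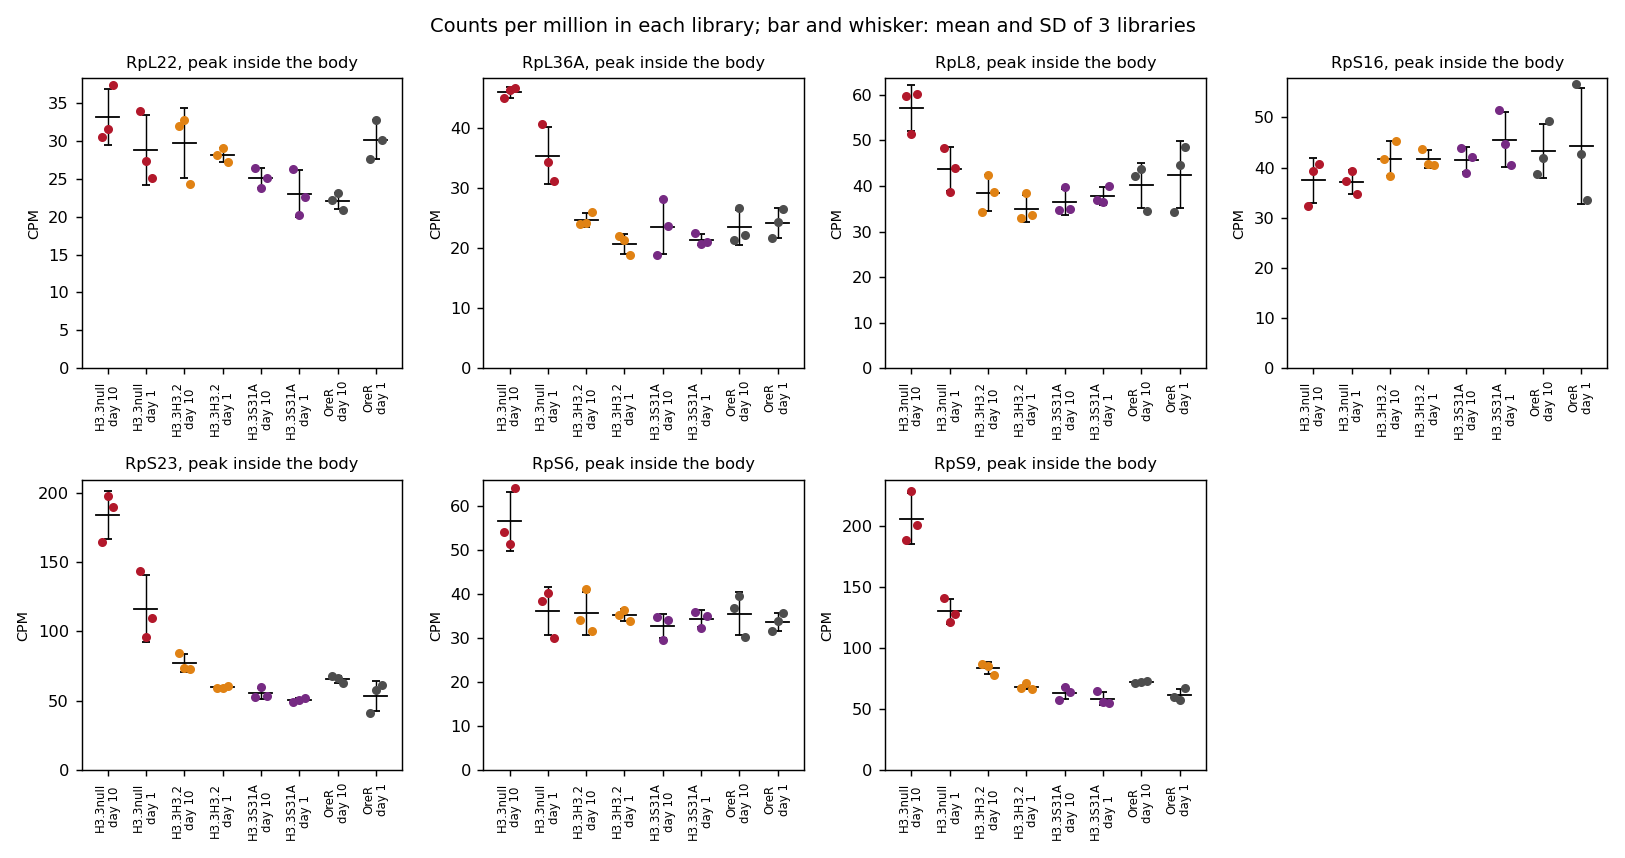
CPM in each of the 24 libraries (points), with the group mean and SD (bars), for 7 peaks that lie wholly inside a ribosomal protein gene; groups run along the x axis by genotype and age. In RpS9 and RpS23 the H3.3null libraries reach 228 and 198 CPM and stand above all others.

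In both genes the rise belonged to the inside peak more than to its neighbour. The inside peak of RpS9 over the outside peak 116 bp away gave a ratio of CPM of 1.61 to 1.73 in the 3 day 10 libraries of H3.3null and 1.09 to 1.33 in its day 1 libraries. The same ratio was 0.657 to 0.674 and 0.597 to 0.675 in OreR, and 0.524 to 0.807 over all H3.3H3.2 and H3.3S31A libraries. That outside peak itself, which overlaps the body of CG3408, had a log2 fold change of 0.18 ± 0.088 at day 10 (adjusted p = 0.132), and 0.18 ± 0.089 (adjusted p = 0.154) at day 1. For RpS23 the inside peak over the end peak 51 bp away gave ratios of 3.14 to 4.04 in day 10 H3.3null libraries and 2.09 to 3.42 in day 1 ones, against 1.64 to 1.86 and 1.02 to 1.86 in OreR. In H3.3H3.2 the ratio was 1.88 to 2.39 at day 10, above OreR and overlapping day 1 H3.3null, and 1.37 to 1.75 at day 1. In H3.3S31A it was 1.39 to 1.79 at day 10 and 1.16 to 1.44 at day 1. The end peak of RpS23 was also higher in H3.3null at day 10, at 0.42 ± 0.14 (adjusted p = 0.0271). That last call was lost without H3.3null day 10 replicate 2, OreR day 10 replicate 1 or OreR day 10 replicate 3.

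RpL36A, a large-subunit protein near the site where spent transfer RNA leaves, had peaks that did different things. Its inside peak (chr2L:8042315-8042663, which overlaps a snoRNA gene) had 45.0, 46.4 and 46.7 CPM in H3.3null and 21.4, 26.8 and 22.3 CPM in OreR at day 10. The day 1 libraries had 40.7, 34.4 and 31.3 CPM in H3.3null and 21.7, 24.4 and 26.6 CPM in OreR. The groups did not overlap at either age, and the 12 H3.3H3.2 and H3.3S31A libraries lay at 18.8 to 28.3 CPM, near OreR. The log2 fold change of H3.3null over OreR was 0.97 ± 0.15 at day 10 (adjusted p = 2.3e-06), and 0.54 ± 0.15 (adjusted p = 0.00556) at day 1. Without H3.3null day 1 replicate 1 the younger call was lost, at 0.43 (adjusted p = 0.0566). An outside peak of RpL36A over CCDC53 had a day 10 log2 fold change of 0.03 (adjusted p = 0.936).

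The other 3 raised inside peaks passed the test at day 10 and did not pass it at day 1. RpS6, the small-subunit protein that S6 kinase phosphorylates when TOR signalling is active, had 54.0, 51.4 and 64.1 CPM in H3.3null and 36.9, 39.5 and 30.2 CPM in OreR at day 10, in a peak (chrX:7900720-7901021) shared with the annotated pseudogene CR33222 and within 1 kb of bys, itself a ribosome assembly gene. RpL22, an RNA-binding large-subunit protein, had 30.5, 31.6 and 37.4 CPM in H3.3null and 22.2, 23.1 and 20.9 CPM in OreR at day 10, in a peak (chrX:763551-763803) shared with the long noncoding RNA gene lncRNA:CR42491. RpL8, a large-subunit protein at the peptidyl transferase centre, had 59.8, 51.4 and 60.2 CPM in H3.3null and 42.1, 43.7 and 34.5 CPM in OreR at day 10 (chr3L:2588370-2588797). In each of the 3 genes every H3.3null library was above every OreR library.

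Their log2 fold changes at day 10 were 0.68 ± 0.13 for RpS6 (adjusted p = 0.000143), 0.60 ± 0.15 for RpL22 (adjusted p = 0.00281) and 0.51 ± 0.13 for RpL8 (adjusted p = 0.00288). Nearby peaks had medians of 0.17, 0.34 and -0.04, so a large share of the RpL22 value was common to its surroundings. At day 1 the values were 0.10, -0.07 and 0.03, with adjusted p of 0.662, 0.768 and 0.901. The inside peak of RpS16, a small-subunit gene, did not pass the test at day 10, at -0.20 ± 0.15 (adjusted p = 0.33). It is narrow, at 175 bp, and had the highest level per kb of the 8, at 238 CPM per kb.

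**Figure D4:**
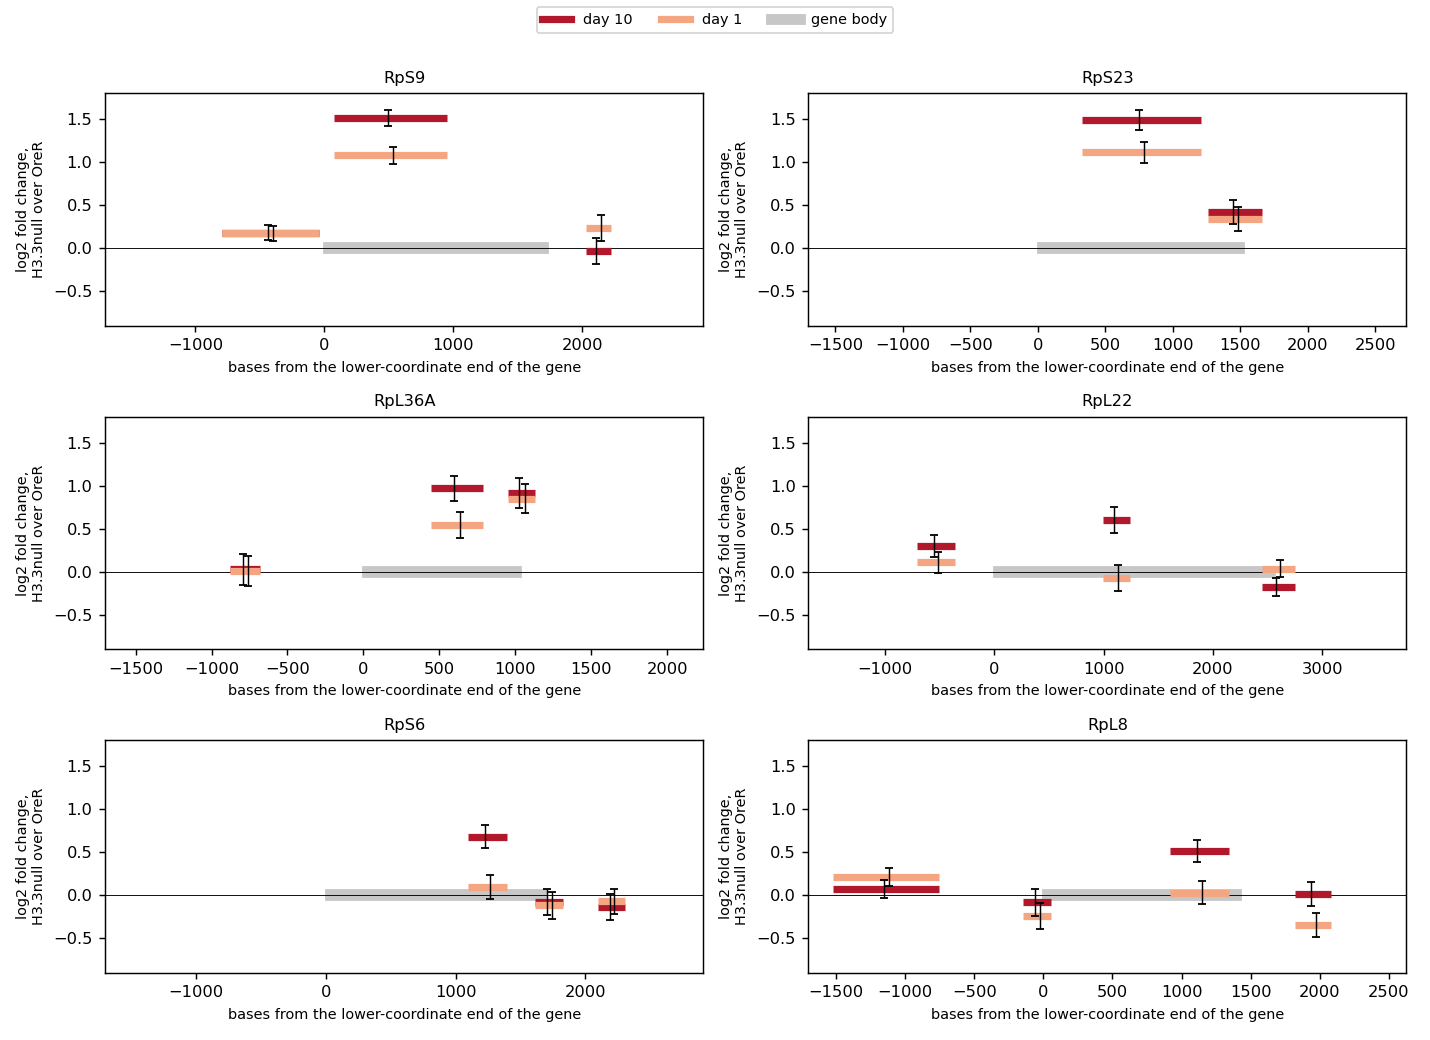
Peaks of RpS9, RpS23, RpL36A, RpL22, RpS6 and RpL8 drawn as horizontal bars over distance in bases from the lower-coordinate end of the gene, at the height of their log2 fold change of H3.3null over OreR with its SE; dark bars are day 10, light bars day 1, and grey marks the gene body. In each gene a peak within the body is raised at day 10, by 0.51 in RpL8 to 1.52 in RpS9.

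Peaks outside gene bodies were also higher in H3.3null, among them one at RpL30, a large-subunit protein. Its outside peak (chr2L:19009826-19010481, 520 bp from the body and over no other protein-coding gene) had 84.2, 95.1 and 97.1 CPM in H3.3null and 62.8, 62.9 and 51.3 CPM in OreR at day 10. The day 1 values were 78.9, 67.2 and 73.6 CPM in H3.3null and 49.5, 56.4 and 58.9 CPM in OreR. The groups did not overlap at either age. The log2 fold change was 0.65 ± 0.13 at day 10 (adjusted p = 0.000311), and 0.41 ± 0.14 (adjusted p = 0.0246) at day 1. At day 1 that call did not hold without H3.3null replicate 1 or 3 or OreR replicate 1 or 2. The peak over the end of RpL30 had a value of -0.05 (adjusted p = 0.774) at day 10, and of 0.18 (adjusted p = 0.182) at day 1.

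RpLP1, a stalk protein that recruits elongation factors, had an outside peak (chr2L:421014-421633, over CG11885) at 97.1, 111 and 122 CPM in H3.3null and 71.3, 77.1 and 71.8 CPM in OreR at day 10. Its log2 fold change was 0.59 ± 0.097 (adjusted p = 9.52e-06), but the 18 other peaks within 100 kb had a median of 0.47, so most of this difference was shared by the region. At day 1 the value was 0.29 (adjusted p = 0.0252) against a nearby median of 0.29, and the call was lost without H3.3null day 1 replicate 1 or 3 or OreR day 1 replicate 1 or 3. An outside peak of RpS7, another small-subunit gene, which was picked after its values were seen, was higher at day 10 at 0.35 ± 0.11 (adjusted p = 0.0197).

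RpL5, which joins the large subunit together with RpL11 and a small ribosomal RNA, changed at day 1. The peak over its end (chr2L:22536637-22536945) had 72.8, 65.1 and 65.7 CPM in H3.3null, 50.5, 61.3 and 50.7 CPM in H3.3H3.2, 52.8, 49.6 and 42.5 CPM in H3.3S31A and 45.0, 35.3 and 34.9 CPM in OreR. H3.3null stood above the other groups, and the log2 fold change over OreR was 0.83 ± 0.14 (adjusted p = 1.08e-05) while nearby peaks had a median of -0.24. H3.3H3.2 was also higher than OreR, at 0.50 ± 0.14 (adjusted p = 0.0104), a call lost without H3.3H3.2 day 1 replicate 2 or OreR day 1 replicate 2 or 3. At day 10 H3.3null over OreR gave 0.30 ± 0.14 (adjusted p = 0.108).

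The lower calls in H3.3null were smaller. RpL23, a large-subunit protein on the face that the assembly factor eIF6 covers, had an end peak at 31.4, 44.3 and 43.8 CPM in H3.3null and 52.6, 58.9 and 66.1 CPM in OreR at day 10, a log2 fold change of -0.56 ± 0.13 (adjusted p = 0.000687). At day 1 it was -0.01 ± 0.12 (adjusted p = 0.953). RpL26, near the tunnel by which new protein leaves, showed the opposite timing: its outside peak (over CG3902) had 24.8, 24.3 and 23.7 CPM in H3.3null and 35.2, 36.7 and 37.1 CPM in OreR at day 1, a log2 fold change of -0.58 ± 0.14 (adjusted p = 0.00211), while day 10 gave 0.28 ± 0.15 (adjusted p = 0.173). The groups did not overlap in either called comparison.

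Among the other lower calls at day 10 were RpL9 (-0.50, adjusted p = 0.012), RpL7A (-0.39, adjusted p = 0.0456), the end peak of RpL37-1 (-0.27, adjusted p = 0.0328), RpS27 (-0.45, adjusted p = 0.049; named after its values were seen) and RpS21. Other lower calls at day 1 were RpS26, at the exit of messenger RNA (-0.36, adjusted p = 0.0215), RpS28b (-0.25, adjusted p = 0.0433) and RpS21. Also lower were RpL41, the smallest ribosomal protein, in a peak that also overlaps NaCP60E (-0.31, adjusted p = 0.0171), and RpL14, in a peak that also overlaps Nelf-E (-0.36, adjusted p = 0.0492, named after its values were seen). Most rested on single libraries: the RpL9 call was lost without H3.3null day 10 replicate 1 or OreR day 10 replicate 3, the RpL7A call without H3.3null day 10 replicate 3 or OreR day 10 replicate 1 or 3, the RpL37-1 call without H3.3null day 10 replicate 1 or 3 or OreR day 10 replicate 2 or 3. At day 1 the RpL41 call was lost without H3.3null day 1 replicate 1 or 3 or OreR day 1 replicate 2, the RpS26 call without replicate 1 or 2 of either group, and the RpS28b call without H3.3null day 1 replicate 2 or 3 or OreR day 1 replicate 1 or 3.

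Flies with H3.2 in place of H3.3, and flies with the S31A form, differed from OreR at few ribosomal protein peaks. In H3.3H3.2, 2 peaks were higher and 1 lower than in OreR at day 10, where 10.7% of all peaks were called (7.13% higher, 3.54% lower), and 3 were higher and 3 lower at day 1, where 11.1% of all peaks were called (6.94% higher, 4.21% lower). In H3.3S31A, 3 were higher and 2 lower at day 10 (10.2% of all peaks, 6.43% higher and 3.77% lower), and 6 were higher and 4 lower at day 1 (10.5% of all peaks, 6.24% higher and 4.27% lower). None of the 8 inside peaks was called in these 4 comparisons by edgeR's quasi-likelihood test or by DESeq2. At an unadjusted p under 0.05 H3.3H3.2 had 2 and H3.3S31A 0 at day 10, and each had 1 at day 1. Of the 5446 peaks inside any protein-coding gene, 1107 and 985 passed that level at day 10, and 1079 and 1074 at day 1. All 6 comparisons with OreR together reached 30 peaks of 25 genes, and 70 peaks were called in none of them. The comparisons share the OreR libraries. The matching share over all peaks is not given here, so these counts only describe the set.

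Of the ribosomal protein peaks, 3 were called in all 6 comparisons with OreR, a count for which no share over all peaks is given here. An outside peak of RpL37-1, a zinc-binding large-subunit protein (chrX:15137349-15137536, over no other protein-coding gene), had 23.4, 22.2 and 22.2 CPM in H3.3null, 30.01, 25.8 and 26.6 CPM in H3.3H3.2, 27.6, 24.9 and 23.4 CPM in H3.3S31A and 10.7, 12.3 and 11.8 CPM in OreR at day 10. The day 1 levels were 25.0, 24.5 and 25.0 CPM in H3.3null, 24.6, 27.5 and 31.2 CPM in H3.3H3.2, 29.1, 24.3 and 28.1 CPM in H3.3S31A and 5.63, 12.3 and 9.81 CPM in OreR. All 18 mutant libraries stood above all 6 OreR libraries. Against OreR at day 10, H3.3null had a log2 fold change of 0.96, H3.3H3.2 of 1.24 and H3.3S31A of 1.13 (adjusted p 0.000115, 1.61e-06 and 1.25e-05), and at day 1 1.40, 1.56 and 1.53 (adjusted p 3.32e-07, 3.91e-08 and 1.09e-07).

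The end peak of RpL36A (chr2L:8042827-8043005, 163 bp from the inside peak) behaved alike, at 27.2 to 42.0 CPM over the 6 H3.3null libraries, 29.8 to 34.1 CPM in H3.3H3.2, 25.8 to 44.4 CPM in H3.3S31A and 15.5 to 20.4 CPM in OreR. Its log2 fold changes over OreR ran from 0.76 (H3.3H3.2, day 1; adjusted p = 0.00131) to 0.91 (H3.3null, day 10; adjusted p = 0.000102). So the inside peak of RpL36A set H3.3null apart from the other 3 genotypes, and the end peak set OreR apart from the 3 mutants.

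RpS21, a small-subunit protein whose flanking peak (chr2L:2855387-2855829) overlaps CG3104, was lower in all 6, at 41.1 to 48.7 CPM over the 6 H3.3null libraries, 38.4 to 47.8 CPM in H3.3H3.2, 36.8 to 47.1 CPM in H3.3S31A and 51.6 to 68.1 CPM in OreR. Against OreR at day 10, the log2 fold change of H3.3null was -0.45, of H3.3H3.2 -0.57 and of H3.3S31A -0.49, and at day 1 -0.34, -0.40 and -0.38, with adjusted p between 0.000654 and 0.0368. Without OreR day 10 replicate 1 the day 10 calls in H3.3null and H3.3S31A were lost, and without H3.3S31A day 10 replicate 2 that in H3.3S31A. At day 1 the H3.3null call was lost without H3.3null replicate 1 or 2 or OreR replicate 2 or 3, the H3.3H3.2 call without H3.3H3.2 replicate 1 or 3 or OreR replicate 3, and the H3.3S31A call without any of its 3 libraries or OreR replicate 2 or 3. RpS26 and RpL26 were lower in all 3 mutants at day 1, with values of -0.35 to -0.39 for RpS26 and -0.43 to -0.58 for RpL26; their H3.3H3.2 calls were lost without H3.3H3.2 day 1 replicate 2 or 3 or any OreR day 1 library, and their H3.3S31A calls without H3.3S31A day 1 replicate 1 or 3 or OreR day 1 replicate 2, that of RpS26 also without OreR day 1 replicate 1 and that of RpL26 without OreR day 1 replicate 3.

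**Figure D5:**
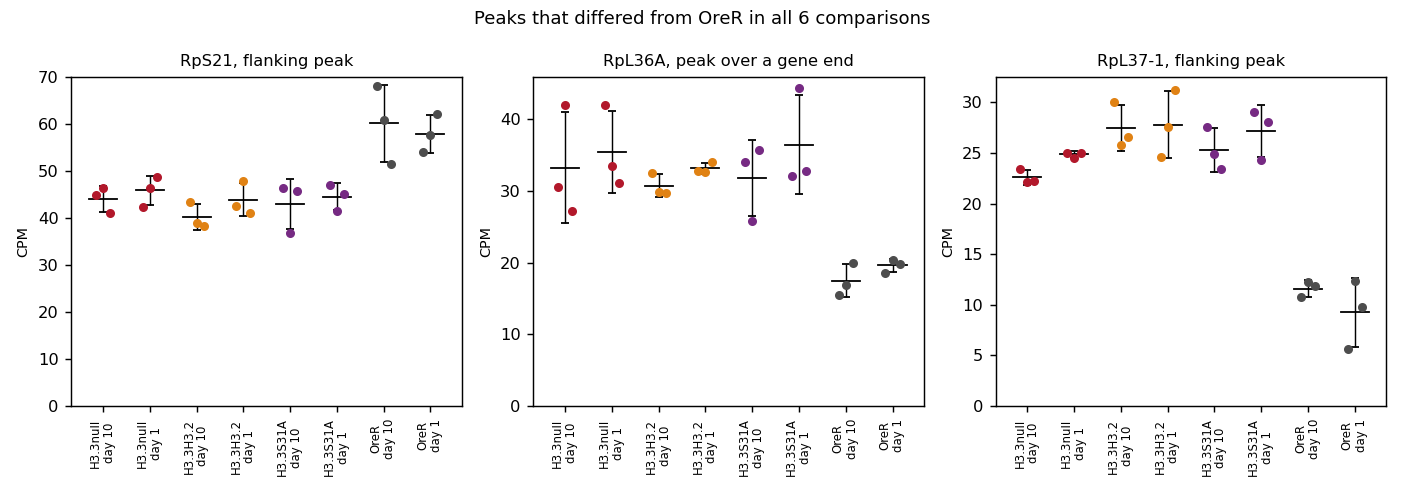
CPM per library of the 3 ribosomal protein peaks called in all 6 comparisons with OreR, by genotype and age. The RpL37-1 outside peak lies at 22.2 to 31.2 CPM in the 18 mutant libraries and at 5.63 to 12.3 CPM in OreR, the RpL36A end peak is also higher in the mutants, and the RpS21 outside peak is lower.

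A few further peaks were called in H3.3S31A. The end peak of RpL11, the partner of RpL5, had 60.2, 57.6 and 62.1 CPM in H3.3S31A and 38.2, 46.7 and 49.8 CPM in OreR at day 10 and 61.7, 64.6 and 60.4 CPM in H3.3S31A and 43.0, 47.4 and 41.9 CPM in OreR at day 1. Its log2 fold change was 0.41 ± 0.13 at day 10 (adjusted p = 0.0316), and 0.49 ± 0.13 (adjusted p = 0.00745) at day 1. An outside peak of RpL3 (over scpr-C) was lower, with 45.6, 41.2 and 47.5 CPM in H3.3S31A and 61.1, 67.8 and 73.0 CPM in OreR at day 1, at -0.59 ± 0.13 (adjusted p = 0.000856), while day 10 gave -0.40 ± 0.13 (adjusted p = 0.0305). The day 10 calls were lost without H3.3S31A replicate 3 or OreR replicate 1 or 2 in both genes, and for RpL11 also without H3.3S31A replicate 1. At day 1, RpL17 (0.39, adjusted p = 0.0165), RpL7A (0.46, adjusted p = 0.0237) and another outside peak of RpS21 (0.40, adjusted p = 0.0402; named after its values were seen) were also higher, and the RpL17 and RpL7A calls were lost without H3.3S31A replicate 3 or OreR replicate 2 or 3, and that of RpL7A also without H3.3S31A replicate 1.

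Setting the replacement genotypes against H3.3null leaves the OreR levels out, but the mutants may still differ in stock background. In H3.3H3.2, 5 ribosomal protein peaks were higher and 9 lower than in H3.3null at day 10 (10.7% of all peaks were called), and 2 were higher and 6 lower at day 1 (11.4%). In H3.3S31A, 5 were higher and 10 lower at day 10 (16.4%), and 3 were higher and 6 lower at day 1 (16.3%). Of the 8 inside peaks, 5 were lower in each replacement genotype at day 10 and 3 in each at day 1. Peaks inside any protein-coding gene were lower at day 10 in 8.54% of cases (H3.3H3.2) and 13.3% (H3.3S31A), and in 7.55% and 11.2% at day 1. Inside the short genes the shares were 20.3% and 29.6% at day 10, and 12.4% and 21% at day 1. The ribosomal protein peaks were RpS9, RpS23 and RpL36A at both ages and RpS6 and RpL8 at day 10. Of the 13 peaks higher in H3.3null than in OreR at day 10, 9 were lower in H3.3H3.2 than in H3.3null and 9 lower in H3.3S31A than in H3.3null. The 13 were picked by their level in the H3.3null libraries that both comparisons share, so these counts are a description. No matching share over all peaks is given here.

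In RpS9 the log2 fold change of H3.3H3.2 over H3.3null was -1.30 ± 0.095 at day 10 (adjusted p = 6.28e-13), and -0.93 ± 0.096 (adjusted p = 3.35e-09) at day 1, and that of H3.3S31A over H3.3null was -1.70 ± 0.098 (adjusted p = 8.36e-16) and -1.15 ± 0.099 (adjusted p = 2.22e-11). In RpS23 H3.3H3.2 gave -1.26 ± 0.12 and -0.96 ± 0.12, and H3.3S31A gave -1.73 ± 0.12 and -1.21 ± 0.12 (largest adjusted p 1.95e-07). At these sites the levels of both replacement genotypes lay well under those of H3.3null and nearer to those of OreR. At day 10, in both genes, every H3.3H3.2 library lay above and every H3.3S31A library below all OreR libraries. At day 1 both replacement genotypes overlapped OreR. RpL17, a large-subunit protein near the exit tunnel, went the other way at its end peak, with 59.6, 64.3 and 61.5 CPM in H3.3H3.2, 63.9, 58.1 and 58.1 CPM in H3.3S31A and 48.7, 46.7 and 43.2 CPM in H3.3null at day 10. Over H3.3null, the log2 fold change of H3.3H3.2 was 0.42 and that of H3.3S31A 0.38 at day 10, and 0.47 and 0.61 at day 1 (largest adjusted p 0.0158). Both day 10 calls were lost without H3.3null day 10 replicate 3, and that of H3.3S31A also without H3.3S31A day 10 replicate 1.

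Between day 1 and day 10 calls among the ribosomal protein peaks were most frequent in H3.3null, where 4 were higher and 1 lower at day 10 (0.924% of all peaks were called). In OreR 1 was lower and none higher (1.91% of all peaks), and DESeq2 called 0 higher. At an unadjusted p under 0.05, 4 were higher and 5 lower in OreR, beside 1474 of all 11145 peaks in either direction. In H3.3H3.2 (0.61% of all peaks) and H3.3S31A (0.987% of all peaks) edgeR called 0 ribosomal protein peaks, with 7 and 6 at an unadjusted p under 0.05, and DESeq2 also called 0. At that unadjusted level H3.3H3.2 had 1053 of all 11145 peaks, and the number for H3.3S31A is not given here. RpS9 rose by 0.66 ± 0.092 on the log2 scale in H3.3null at day 10 (adjusted p = 5.63e-05), against 0.23 ± 0.10 in OreR (adjusted p = 0.321). RpS23 rose by 0.66 ± 0.11 in H3.3null (adjusted p = 0.00117), against 0.29 ± 0.13 in OreR (adjusted p = 0.309). RpS6 rose by 0.65 ± 0.13 in H3.3null (adjusted p = 0.00649), a call lost without replicate 3 of either age.

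In RpS9 the 3 H3.3null libraries at day 10 were all above the 3 at day 1, and so were those of RpS23 and RpS6. RpLP1 also rose with age in H3.3null, by 0.38 ± 0.095 (adjusted p = 0.0406). The RpLP1 call was lost without any H3.3null day 1 library or H3.3null day 10 replicate 2 or 3.

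The difference of the age effects was tested as an interaction, and no ribosomal protein peak passed in any mutant (0% of all peaks were called in each). For H3.3null minus OreR, edgeR called 0 of the 100, with 20 at an unadjusted p under 0.05, 11 with a larger and 9 with a smaller age effect in H3.3null, and DESeq2 called 0. The share of all peaks at that unadjusted level is not given here, so the 20 only describe the set. Of the 8 inside peaks, 6 were among the 11, and all 6 are peaks called higher in H3.3null at day 10. The day 10 difference is part of the interaction, and the inside class was picked after its values were seen. The match is therefore only a description of these 6 peaks. Their log2 differences of age effects were 0.44 ± 0.14 in RpS9 (adjusted p = 0.345), 0.67 ± 0.21 in RpL22 (adjusted p = 0.345), 0.58 ± 0.19 in RpS6 (adjusted p = 0.354), and 0.48, 0.38 and 0.43 in RpL8, RpS23 and RpL36A. The RpL22 value was not particular to H3.3null. Its inside peak also had 0.53 ± 0.21 in H3.3H3.2 minus OreR and 0.57 ± 0.22 in H3.3S31A minus OreR. The edgeR unadjusted p was 0.016 and 0.013, and these comparisons share the OreR libraries. For H3.3null minus OreR, the smallest p among the members was that of RpL26, at 0.86 ± 0.21 (adjusted p = 0.155). A larger change in H3.3null at day 10 than at day 1 therefore passed the adjusted test for no ribosomal protein gene, also where day 10 was called and day 1 was not.

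Several fly ribosomal protein genes exist as duplicated copies, of which some are used mainly in the germline. Of 27 listed genes of such pairs 26 were matched in the gene table and 18 had a peak, 24 peaks in all. The list includes RpLP0-like and RpL24-like, whose role in the ribosome was not checked. Among these 24 peaks, H3.3null over OreR had only the RpL22 inside peak higher at day 10. Only an RpS28b outside peak was lower at day 1. None was lower at day 10 or higher at day 1 by edgeR or DESeq2, with 0 at an unadjusted p under 0.05. Over all peaks 15.5% were higher and 9% lower at day 10, and 14.1% higher and 10.6% lower at day 1. In H3.3H3.2 and H3.3S31A over OreR edgeR and DESeq2 called 0 of the 24 at either age, with 1 and 2 at an unadjusted p under 0.05 at day 10 and 0 and 1 at day 1. Over all 11145 peaks that unadjusted level was passed by 2318 and 2068 at day 10 and 2274 and 2241 at day 1. The 24 do not include the 2 peaks of RpL37-1, although the gene table also holds RpL37-2. The RpL37-1 outside peak was called higher in all 6 comparisons with OreR, and its end peak lower in H3.3null at day 10. RpS14a and RpS14b, tandem copies, share an end peak whose reads cannot be assigned to either copy, and RpL22-like, RpL10Aa, RpS5b and RpS10b had no peak in the table. The end peak of sta, whose protein sits at the exit of messenger RNA, had 85.4, 90.1 and 87.8 CPM in H3.3null and 76.8, 99.0 and 82.0 CPM in OreR at day 10, with log2 fold changes of 0.03 ± 0.099 (adjusted p = 0.86) and 0.02 ± 0.097 at day 1 (adjusted p = 0.911).

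Genes that work beside the ribosome were counted by the same rule, for H3.3null over OreR. Of 53 peaks at 29 translation factor genes, 4 were higher and 7 lower at day 10 and 5 higher and 3 lower at day 1. Over all peaks 15.5% were higher and 9% lower at day 10, and 14.1% higher and 10.6% lower at day 1. The largest rise was inside eEF2, the factor that moves the ribosome along, with 123 ± 9.56 CPM in H3.3null and 57.4 ± 13.4 CPM in OreR at day 10 (SD, n = 3 each) and a log2 fold change of 1.10 ± 0.12 (adjusted p = 5.18e-09). At day 1 it was 0.39 ± 0.12. Of 24 peaks at 17 ribosome biogenesis genes, 5 were higher and 4 lower at day 10, and 3 higher and 1 lower at day 1. Among them were Tif-IA, which starts ribosomal RNA transcription (0.57 at day 10), and RIOK1, a kinase of small-subunit maturation (-0.99 at day 10), and 1 of the 5 is the RpS6 inside peak, which lies within 1 kb of bys.

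Of 58 peaks at 42 genes of the mitochondrial ribosome, 8 were higher and 4 lower at each age, among them a peak of mRpL22 (1.03 at day 10) and a peak of mRpL37 (-1.14 at day 10). Of 31 peaks at 26 proteasome genes, 6 were higher at day 10 and 7 higher and 1 lower at day 1, led by Prosalpha1 (1.45 at day 10) and Prosalpha7 (1.32 at day 10). These counts are to be read against the same shares of all peaks, 15.5% higher and 9% lower at day 10 and 14.1% higher and 10.6% lower at day 1. The 53, 24, 58 and 31 peaks had median log2 fold changes of -0.07, -0.10, -0.11 and -0.02 at day 10, beside -0.04 for the 100 ribosomal protein peaks and -0.01 for all 11145. The share of each library's counts that fell in the 100 ribosomal protein peaks was 0.601 ± 0.031% in H3.3null, 0.587 ± 0.013% in H3.3H3.2, 0.569 ± 0.032% in H3.3S31A and 0.575 ± 0.029% in OreR at day 10 (SD, n = 3 each), and 0.597 ± 0.011%, 0.571 ± 0.021%, 0.585 ± 0.019% and 0.567 ± 0.030% at day 1 in the same order, with mutant and OreR libraries that overlapped at each age.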

How the data were processed

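The data are raw counts of reads per peak. The authors deposited them in a single table for all 24 samples, whose columns were matched to samples by label. Per the submitters' processing notes the build is dm6 and the tools include STAR 2.7.7a, SAMtools 1.9, bedtools 2.26, deepTools 3.2.0, featureCounts from Subread 2.0.1 and DESeq2 1.34.0. The peak caller, duplicate removal and any shift of reads for Tn5 are not given in the sources used here, so counts near a peak's edge may depend on them. The labels' extraction text describes RNA although their molecule is genomic DNA, and the table was read as ATAC-seq data.

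Counts were tested with edgeR 4.0.16 (R 4.3.3) after TMM scaling (factors 0.970 to 1.02). The filterByExpr step removed 0 of 11145 peaks, so all 100 members passed. A quasi-likelihood model with 1 coefficient for each of the 8 groups was fitted to all peaks (16 residual degrees of freedom, biological coefficient of variation 8.96%) with Benjamini-Hochberg adjustment over all peaks within each of 17 contrasts. The fit was also run on simulated counts drawn with its own fitted spread. These held no batch or stock difference, so that run cannot check those limits. CPM uses TMM-scaled totals, fold changes are log2 with standard errors, and counts without molecular identifiers cover no duplicate error. Gene bodies came from the Release 6 RefSeq gene table, which has no strand, exons or transcripts, so exons and UTRs are not given, and promoter motifs were not analysed here.

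The members, gene lists and tests were chosen with earlier results of these data known. Named peaks were up to 5 higher and 5 lower calls with the smallest p in each contrast, all age calls, duplicated genes, sta, and the 5 highest and 5 lowest levels per kb. The class of inside peaks, the neighbours set beside named peaks, and a few peaks said to be so were picked after their values were seen. A few peaks that this rule names are not reported here. Same-numbered replicates of different groups did not deviate together (median r = -0.0075 over 84 pairs, -0.388 to 0.384), so the numbers were not taken to pair samples. Replicates differed beyond counting noise (chi-square per degree of freedom 2.20 to 8.22 over 24 pairs), so none was a copy.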

Additional observations from a re-analysis of the deposited data

Results flagged for a closer look

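At 16 combinations of an age and a ribosomal protein peak, both replacement genotypes differed from H3.3null. Only peaks reported here and called in H3.3null over OreR were considered. H3.3H3.2 and H3.3S31A were each tested directly against H3.3null (edgeR, adjusted p under 0.05), where the OreR level cancels but the mutants' stock backgrounds may differ. The peaks were picked by a call on the same H3.3null libraries, which both tests also share, so the count of 16 is a description. It has no matching share over all peaks here. All values here are log2 fold changes over H3.3null, H3.3H3.2 before H3.3S31A. No explanation was tested for any of them.

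The largest were at inside peaks that H3.3null had higher than OreR. RpS9 had -1.30 and -1.70 at day 10 and -0.93 and -1.15 at day 1. RpS23 had -1.26 and -1.73 at day 10 and -0.96 and -1.21 at day 1. RpL36A had -0.90 and -0.96 at day 10 and -0.77 and -0.72 at day 1. At day 10, RpS6 had -0.68 and -0.80, and RpL8 had -0.58 and -0.65. None of these calls was lost without any single library.

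Peaks outside or at the end of the gene that H3.3null had higher were RpL30, with -0.67 and -0.82 at day 10 and -0.53 and -0.56 at day 1, RpLP1, with -0.54 and -0.69 at day 10, RpS7, with -0.52 and -0.59 at day 10, and the RpS23 end peak, with -0.45 and -0.58 at day 10. The RpL30 call in H3.3H3.2 at day 1 was lost without H3.3H3.2 day 1 replicate 1 or H3.3null day 1 replicate 1. The RpS23 end call in H3.3H3.2 was lost without any H3.3H3.2 day 10 library or H3.3null day 10 replicate 2 or 3, and that in H3.3S31A without H3.3null day 10 replicate 2.

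Among the peaks reported here, those that H3.3null had lower than OreR went the other way at day 10 in RpL23, with 0.45 and 0.48, and in RpL7A, with 0.52 and 0.41. At day 1 RpL41, whose peak also overlaps NaCP60E, had 0.30 and 0.30. The RpL23 calls were lost without H3.3null day 10 replicate 1, that of H3.3H3.2 also without H3.3H3.2 replicate 3 and that of H3.3S31A without H3.3S31A replicate 1. The RpL7A calls were lost without H3.3null day 10 replicate 3, that of H3.3H3.2 also without H3.3H3.2 replicate 3 and that of H3.3S31A without H3.3S31A replicate 1 or 2. The RpL41 calls were lost without H3.3null day 1 replicate 1 or 3, that of H3.3H3.2 also without H3.3H3.2 replicate 1 or 2 and that of H3.3S31A without H3.3S31A replicate 2.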

How the results depend on the processing

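Of 102 pairs of a named peak and a comparison called, 58 were called under every setting and none changed sign; the 6 inside peaks called in H3.3null at day 10 held in all. RpS9 ran from 1.44 to 1.58 at day 10 and 1.02 to 1.15 at day 1, RpS23 from 1.44 to 1.56 and 0.94 to 1.24. Where a number below moved, the cause was not tested, except that stricter calls and member rules count fewer peaks and left-out libraries leave fewer samples. Asking also for a log2 fold change of 0.5 or more in size, the calls were 12 for H3.3null over OreR at day 10 (20 without this limit) and 7 at day 1 (15), 3 of 6 in H3.3H3.2 at day 1, 2 of 5 in H3.3S31A at day 10 and 3 of 10 at day 1, 9 of 14 and 4 of 8 for H3.3H3.2 over H3.3null at day 10 and day 1, 5 of 9 for H3.3S31A over H3.3null at day 1, 3 of 5 for age in H3.3null and 0 of 1 for age in OreR.

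Keeping peaks that overlap the gene body gave, in the order day 10 then day 1, 12 and 8 calls for H3.3null over OreR, 1 and 3 in H3.3H3.2, then 2 and 5 in H3.3S31A, 9 and 5 for H3.3H3.2 over H3.3null, and 3 for age in H3.3null and 0 in OreR. Peaks with a centre within 500 bp of an end gave 9 for H3.3null at day 1, 4 for each replacement genotype over H3.3null at day 1, 2 for age in H3.3null and 0 in OreR. Peaks over no other protein-coding gene gave 9 for H3.3null at day 1, 3 for H3.3S31A at day 10 and 6 at day 1. Outside 2R there were 5 for H3.3H3.2 over H3.3null at day 1, 3 for age in H3.3null and 0 in OreR. Fitting the compared groups alone gave 5 for H3.3S31A at day 1 and 0 for age in OreR, and library totals without TMM gave 3 for age in H3.3null. DESeq2's Wald test gave 21 and 16 for H3.3null at day 10 and day 1.

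Leaving out each library in turn gave 13 to 20 and 8 to 14 calls for H3.3null over OreR at day 10 and day 1, 3 to 4 and 2 to 5 in H3.3H3.2, then 2 to 5 and 4 to 9 in H3.3S31A, 10 to 13 and 5 to 7 for H3.3H3.2 over H3.3null, 12 to 16 and 6 to 9 for H3.3S31A over H3.3null, 2 to 4 for age in H3.3null and 0 to 1 in OreR, and 6 and 2 to 3 for the inside peaks at day 10 and day 1. The day 1 counts fell most without OreR replicate 3 for H3.3H3.2 (2) and H3.3S31A replicate 3 or OreR replicate 2 for H3.3S31A (4 each). The other libraries that moved a count past 1.5 times were H3.3H3.2 day 1 replicates 2 and 3 and OreR day 1 replicate 2 (3 each for H3.3H3.2), H3.3S31A day 1 replicate 1 (5) and OreR day 1 replicate 3 (6), OreR day 10 replicate 1 (2), replicate 2 (3) and H3.3S31A day 10 replicate 3 (3), H3.3null day 1 replicate 1 (5 for H3.3H3.2 over H3.3null), and for age in H3.3null its day 1 replicates 1 and 2 (3 each), day 1 replicate 3 and day 10 replicate 3 (2 each).

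With the replicate number as a block there were 19 and 16 calls for H3.3null over OreR at day 10 and day 1, 4 and 6 in H3.3H3.2, then 5 and 10 in H3.3S31A, 15 and 7 for H3.3H3.2 over H3.3null, 16 and 9 for H3.3S31A over H3.3null, 1 and 4 for age in OreR and H3.3null, and 6 and 3 inside peaks; the numbers were not shown to pair samples. With 3 alternatives chosen after seeing the data, 10 peaks with a centre at least 150 bp inside a gene gave 6 higher calls in H3.3null at day 10 and 3 at day 1, and calls that also differed by at least 0.25 from the median of peaks within 100 kb numbered 19 and 13 for H3.3null over OreR at day 10 and day 1, 3 and 6 in H3.3H3.2, then 5 and 10 in H3.3S31A.

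At these depths a ribosomal protein peak had 201 counts in a library by median, and changes under 0.5 on the log2 scale were often not called, so peaks without a call are not shown to be unchanged.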
